A study of Mus musculus with 6 samples.

Results

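The replication-dependent histone genes of the Hist1, Hist2, Hist3 and Hist4 clusters were compared between fibrinogen-treated and control libraries. They were taken as every row of the deposited expression table whose gene symbol begins with Hist, a cluster number from 1 to 4 and the letter h. The rule found 58 of 34250 rows and used no measured value. By the type that the symbol spells, 5 were H1, 18 H2A, 16 H2B, 10 H3 and 9 H4 genes. The group was chosen with earlier results of these data known, among them those of Hist1h1c and Hist1h2bc.

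The libraries came from wild-type C57BL/6 mouse brain and carry the cell type label of oligodendrocyte progenitor cells (OPCs), which divide in the brain and give rise to the cells that form myelin. There were 3 libraries treated with fibrinogen, the plasma protein that becomes fibrin in a clot, with 2.5 mg in the column names of the table, and 3 control libraries. No transgene or deletion is labelled in either group, and the labels give no age; the methods describe primary OPC cultures from cortices of newborn pups. Whether the libraries of a group came from different cultures is not stated, and the p-values below reflect the spread among libraries, part of which may be technical.

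Histones package DNA. A pair each of H2A, H2B, H3 and H4 molecules forms the core of a nucleosome, and H1 binds the linker DNA between nucleosomes. Most of their genes lie in clusters, lack introns and are transcribed mainly while DNA is copied. Their mRNAs are the known exception to polyadenylation in animal cells. They end in a conserved stem-loop that is bound by the stem-loop binding protein, which the gene Slbp encodes, and several cluster genes also give longer, polyadenylated mRNAs in cells that do not divide.

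Of the 58 rows, 43 lay on chromosome 13 between 21716422 and 23764358 (GRCm38, the build of the table). There were 10 on chromosome 3 between 96219865 and 96270132, 3 on chromosome 11 between 58948920 and 58956830 and 1 on chromosome 6. Hist1h2al stood apart from the cluster at chr13:51202688-51203065 and is annotated by RefSeq as a transcribed H2A pseudogene. RefSeq annotates 3 rows in all as pseudogenes.

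The stem-loop is shown for the genes whose levels the comparison turns on, because these mRNAs end just past it when they are not polyadenylated. Sequences are from GENCODE mouse transcripts, read 5′ to 3′, and capitals mark the 16 bases of the stem-loop, with 6 bases on each side of the stem and 4 in the loop.
Hist1h1c: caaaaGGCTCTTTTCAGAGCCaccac
Hist2h2aa2: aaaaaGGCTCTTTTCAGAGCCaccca
Hist1h2bc: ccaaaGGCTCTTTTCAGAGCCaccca
Hist1h2be: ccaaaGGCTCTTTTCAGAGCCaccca
Hist2h4: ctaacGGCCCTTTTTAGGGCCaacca
A stem-loop of this kind was found in some transcript of 34 of the 51 histone rows that matched a GENCODE transcript by symbol, and in 0.275% of all 481956 mouse transcripts. The form of Hist1h1c, Hist2h2aa2, Hist1h2bc and Hist1h2be was that of 22 rows of the types H1, H2A, H2B and H3. The stems of the 6 H4 genes with a site differed from it, as the line of Hist2h4 shows.

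The transcripts differed in how far they ran past the stem-loop. Of 32 rows with a transcript of exactly the row's exon length, 18 had a stem-loop in it, followed by 3 to 1257 bases. In 11 of them at most 100 bases followed, and 0 of these transcripts had the polyadenylation signal AATAAA in the last 50 bases. In the other 7 more than 100 bases followed, and 4 had the signal, which 47.7% of all mouse transcripts hold there. Hist1h1c had 840 bases after the stem-loop, Hist2h4 had 1257, both with the signal, and Hist2h2aa2 had 35 bases without it. For Hist1h2bc 1 of 5 annotated transcripts held the stem-loop. That transcript, of 836 bases, is annotated for nonsense-mediated decay and is not of the row's length, and the protein-coding ones lacked the site. The median of recovered reads over the 6 libraries together was 55 for the 7 rows with long ends and 8 for the 11 rows with short ends, a description of unequal annotation and not a test. The totals went the other way, 4626 reads for long ends and 5012 for short ends, or 159 for short ends without Hist2h2aa2. These reads are not scaled by row length.

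Most cluster rows were near the floor of the measurement. The table gives RPKM, reads scaled by exon length and by library total, and the whole reads behind each value could be recovered. Of the 58 rows, 7 had 0 reads in all 6 libraries and 19 had reads in every library. Only 7 rows reached 1 RPKM in 3 libraries and entered the test across 14710 genes, limma on log2(RPKM + 1). Of the 51 untested rows 29 had at most 10 reads in all. Because cluster genes share sequence and how multiply mapping reads were assigned is not given in the sources used here, single members are uncertain: 47 of 51 rows with a transcript shared at least 1 stretch of 50 bases with another member, and 21 shared more such stretches than not.

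All histone cluster rows together took 96.4, 94.1 and 91.8 RPM (reads per 1000000 reads assigned to genes) in fibrinogen libraries 1 to 3, against 53.3, 48.3 and 48.7 in control libraries 1 to 3. Each fibrinogen library was thus above each control library. Of these reads 65.1% came from 3 rows.

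**Figure D1:**
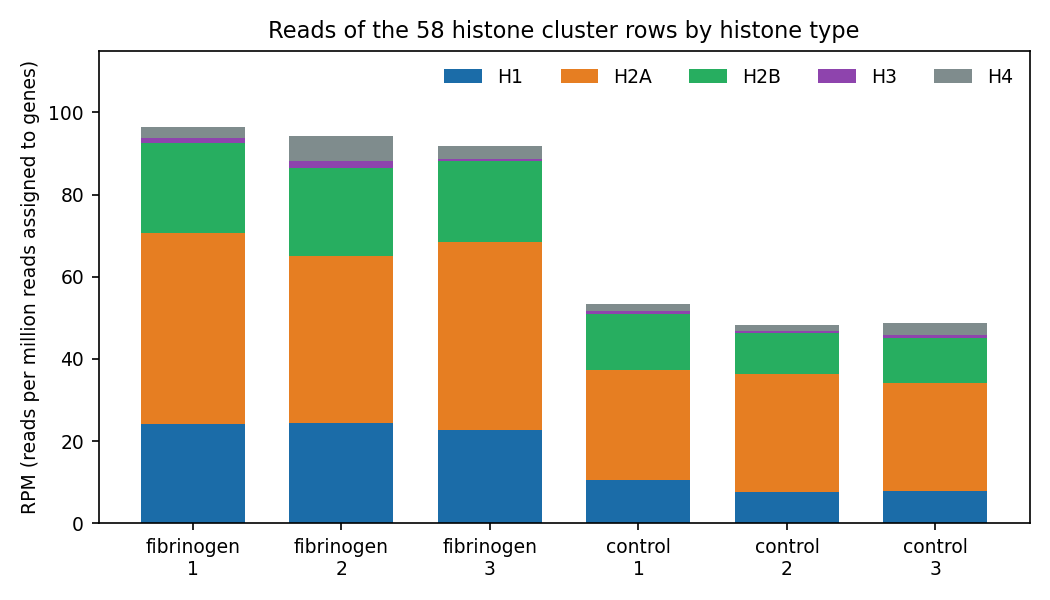
RPM (vertical axis) of the 58 histone cluster rows for each library, stacked by histone type. The 3 fibrinogen libraries reach 91.8 to 96.4 RPM and the 3 control libraries 48.3 to 53.3, with little from H3 and H4.

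Of the 7 tested rows, 3 rose in fibrinogen libraries (limma, adjusted p under 0.05), 0 fell and 4 did not pass. At an unadjusted p under 0.05 the counts were 4 higher and 0 lower. The shares of all tested genes at that unadjusted threshold are not given here, so these counts and the later ones at it have no background. Over all 14710 tested genes 5.87% were called higher and 5.62% lower. The median log2 change of the 7 rows was 0.56 on the log2(RPKM + 1) scale, against -0.0077 over all tested genes. In 4 of the 7 the groups did not overlap, with fibrinogen higher, where 17.4% of all tested genes did the same. The called rows were 1 H1, 1 H2A and 1 H2B gene. They differed from most of the cluster in that they were among its most abundant rows, a property the filter favours.

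**Figure D2:**
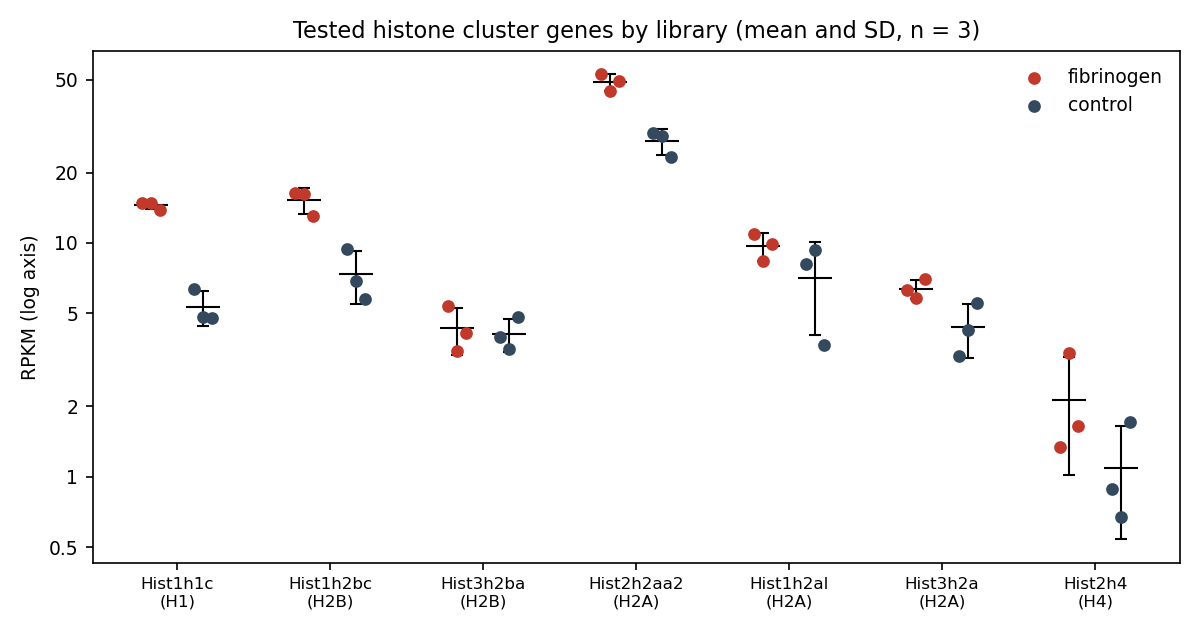
RPKM on a log axis (vertical) of the 7 tested histone cluster rows, 1 point per library with fibrinogen left of control, and bars for the mean and SD of 3 libraries. The groups are apart for Hist1h1c, Hist1h2bc, Hist2h2aa2 and Hist3h2a and overlap for Hist3h2ba, Hist1h2al and Hist2h4.

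The largest log2 change among tested members was that of Hist1h1c, which encodes the linker histone H1.2. Hist1h1c lies at chr13:23738808-23740367 on the plus strand in 1 exon of 1560 bases, while RefSeq ends the gene at 23739531. It was at 14.8, 14.8 and 13.9 RPKM in fibrinogen libraries, against 6.37, 4.81 and 4.80 RPKM in control libraries. These levels rest on 846, 1023 and 892 reads with fibrinogen and 380, 293 and 320 reads in controls. The 3 fibrinogen values lay close together and well above the highest control. The means were 14.5 RPKM ± 0.513 with fibrinogen and 5.33 RPKM ± 0.904 in controls (SD, n = 3 each). The log2 change of Hist1h1c was 1.30 ± 0.11 (SE; limma adjusted p = 0.00168), and 8.54% of its 50-base stretches also occur in another member.

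The other H1 rows were low. Hist1h1e, which encodes H1.4, had 26, 45 and 32 reads with fibrinogen and 18, 2 and 12 in controls, with no overlap of the groups. Hist1h1d, which encodes H1.3, had 7, 13 and 4 reads with fibrinogen and 0 in each control library, too few reads to be tested. Hist1h1b and Hist1h1a had at most 6 reads in any library. Summed RPKM of the 5 H1 rows was 16.1, 16.6 and 15.4 in fibrinogen libraries and 7.08, 4.88 and 5.17 in control libraries, and Hist1h1c held 95.5% of the H1 reads.

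The promoter of Hist1h1c is printed because it holds an element that H1 genes are known for. The window runs from 250 bases before the start of the gene to 50 after it (RefSeq, GRCm38.p6, chr13:23738557-23738856, plus strand), and capitals mark AAACACA, the H1 box, and CCAAT.
Hist1h1c promoter: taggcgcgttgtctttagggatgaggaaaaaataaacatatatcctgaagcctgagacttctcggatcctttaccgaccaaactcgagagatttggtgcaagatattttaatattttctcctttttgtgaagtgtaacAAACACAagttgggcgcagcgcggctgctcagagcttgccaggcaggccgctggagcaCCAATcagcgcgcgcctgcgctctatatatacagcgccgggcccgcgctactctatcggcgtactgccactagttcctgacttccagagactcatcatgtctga
The H1 box, searched as AAACACA on both strands, was in 4 of 5 H1 genes and in 2 of the other 44 histone genes with a window. It was in 7.18% of 32851 windows of all genes. Histone counts of motifs, here and below, are of genes, so Hist1h2be with 2 windows counts once, while the share over all is of windows. A match is a description of letters and not of binding.

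Among H2A genes, Hist2h2aa2 was the most abundant histone cluster row and rose. It encodes a core H2A histone and lies at chr3:96239749-96240276 on the minus strand, in 1 exon of 528 bases. Its levels were 52.6, 44.6 and 49.2 RPKM in fibrinogen libraries, against 29.6, 28.8 and 23.4 RPKM in control libraries. The lowest fibrinogen value was above the highest control value. Hist2h2aa2 averaged 48.8 RPKM ± 4.02 with fibrinogen and 27.3 RPKM ± 3.37 in controls (SD, n = 3 each). The log2 change was 0.82 ± 0.11 (SE; limma adjusted p = 0.00806).

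The reads of Hist2h2aa2 cannot be tied to this gene alone. Its 528-base transcript is identical to the end of the transcript of Hist2h2aa1, a neighbouring copy with 58 more bases at its start. Hist2h2aa2 took 97.7 to 98.4% of the reads of both copies, and together they had 1040, 1065 and 1094 reads with fibrinogen and 607, 608 and 539 in controls. On the opposite strand the predicted gene Gm20632 covers all 528 bases. Gm20632 was given 1058, 1070 and 1109 reads with fibrinogen and 624, 630 and 569 in controls, nearly the numbers of Hist2h2aa2 (1018, 1046 and 1070 with fibrinogen, and 597, 594 and 528 in controls). Reads of the 2 strands could therefore not be told apart in the table. In all, 22 of the 58 rows overlap another row, 20 of them on the opposite strand.

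**Figure D3:**
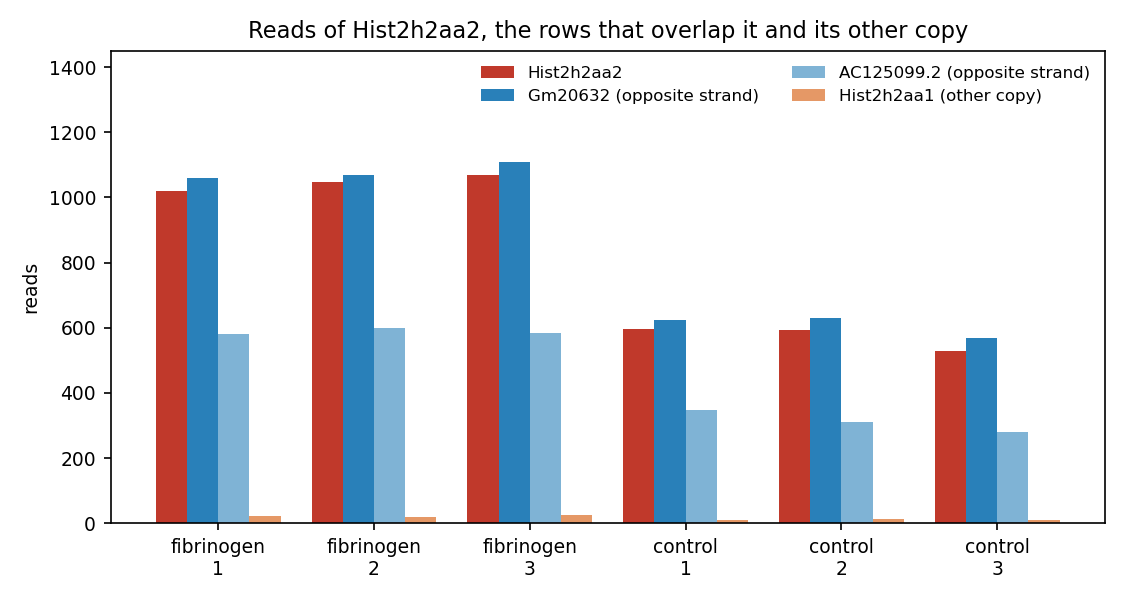
Reads (vertical axis) in each library of Hist2h2aa2, of the rows Gm20632 and AC125099.2 that overlap it on the opposite strand, and of the copy Hist2h2aa1. Gm20632 follows Hist2h2aa2 within each library, and Hist2h2aa1 has 10 to 24 reads.

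The other tested H2A rows did not pass. Hist3h2a (chr11:58954685-58956830, plus strand) was at 6.26, 5.79 and 6.98 RPKM with fibrinogen and 3.29, 4.25 and 5.54 RPKM in controls. The groups did not overlap, but control library 3 came close to the fibrinogen libraries. Its log2 change was 0.47 ± 0.16 (SE; limma adjusted p = 0.0956), and it passed without control replicate 3 (0.63, limma adjusted p = 0.0224). Hist3h2a shares 708 of its 2146 bases with Trim17 on the same strand. Trim17 had 5.01, 5.67 and 5.45 RPKM with fibrinogen and 3.37, 3.65 and 5.60 RPKM in controls, so control library 3 stood apart there too.

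The pseudogene row Hist1h2al was at 11.0, 8.33 and 9.89 RPKM with fibrinogen and 8.16, 9.35 and 3.65 RPKM in controls. Its groups overlapped and control library 3 was the lowest (log2 change 0.49 ± 0.29 SE, limma adjusted p = 0.306). Of its 50-base stretches 65.5% occur in Hist2h2aa1. Over all 18 H2A rows, summed RPKM was 72.3, 61.6 and 68.0 with fibrinogen and 43.4, 44.1 and 34.0 in controls, and 4 of the rows had 0 reads throughout.

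Among H2B genes, Hist1h2bc rose. It has 2 exons at chr13:23684199-23684621 and chr13:23692176-23692488 on the plus strand, 736 bases together, so it is not one of the intronless rows. Hist1h2bc was at 16.4, 16.2 and 12.998 RPKM in fibrinogen libraries, against 9.42, 6.89 and 5.75 RPKM in control libraries. The groups did not overlap, and the spread within each was wider than for Hist1h1c. It averaged 15.2 RPKM ± 1.92 with fibrinogen and 7.35 RPKM ± 1.87 in controls (SD, n = 3 each). The log2 change was 0.97 ± 0.17 (SE; limma adjusted p = 0.0164). The call was lost without fibrinogen replicate 1 (0.92, limma adjusted p = 0.0663), fibrinogen replicate 2 (0.93, limma adjusted p = 0.0515) or control replicate 2 (0.94, limma adjusted p = 0.0543).

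Hist3h2ba, an H2B gene of the chromosome 11 cluster, was at 5.37, 3.44 and 4.11 RPKM with fibrinogen and 3.96, 3.50 and 4.80 RPKM in controls. Its groups overlapped (log2 change 0.05 ± 0.15 SE, limma adjusted p = 0.850). Summed RPKM over the 16 H2B rows was 26.6, 25.6 and 21.8 with fibrinogen and 16.1, 12.3 and 13.1 in controls.

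H2B genes are known for the octamer ATTTGCAT, a site of the POU factor Oct1 in their promoters. Hist1h2bc starts at 23684199, inside the window of the divergent H2A gene Hist1h2ac (RefSeq, GRCm38.p6, chr13:23683910-23684209), so this window is printed as the shared region. It reads along the minus strand, toward Hist1h2ac, and capitals mark the octamer, CCAAT and TATAAA or their reverse complements.
Hist1h2ac and Hist1h2bc: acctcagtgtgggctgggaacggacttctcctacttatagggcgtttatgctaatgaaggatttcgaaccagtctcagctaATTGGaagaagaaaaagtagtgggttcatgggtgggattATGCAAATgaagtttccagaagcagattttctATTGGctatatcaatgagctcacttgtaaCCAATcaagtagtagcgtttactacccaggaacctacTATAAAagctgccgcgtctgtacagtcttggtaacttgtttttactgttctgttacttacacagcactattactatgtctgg
The octamer, searched on both strands, was in 6 of 13 H2B genes, 6 of 15 H2A genes and 0 of the H1, H3 and H4 genes with a window. It was in 1.74% of all windows. CCAAT was in 43 of 49 histone genes and 37.4% of all windows, and the 6 without it were H4 genes. TATAAA was in 29 of 49 histone genes and 13.6% of all windows. The neighbouring H2A and H2B genes point away from each other in such pairs, so the windows of the types are not independent.

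The window of Hist2h2aa2, the most abundant row, was searched in the same way (RefSeq, GRCm38.p6, chr3:96240325-96240624, minus strand). RefSeq starts the gene at 96240374, upstream of the row's start at 96240276.
Hist2h2aa2 promoter: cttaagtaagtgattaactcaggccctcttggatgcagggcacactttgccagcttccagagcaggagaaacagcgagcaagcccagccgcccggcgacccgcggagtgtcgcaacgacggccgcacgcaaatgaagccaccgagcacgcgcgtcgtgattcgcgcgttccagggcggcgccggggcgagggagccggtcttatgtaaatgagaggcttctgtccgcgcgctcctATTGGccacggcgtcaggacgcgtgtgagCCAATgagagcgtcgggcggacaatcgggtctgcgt
Capitals mark CCAAT or its reverse complement. This window held CCAAT and none of the other 3 motifs. Unlike the window shared by Hist1h2ac and Hist1h2bc, it had no octamer. Its end lies upstream of the row's start, and the window of the copy Hist2h2aa1 continues the same stretch past that end and holds TATAAA there. Whether Hist2h2aa2 has TATAAA just past its window cannot be read from the window.

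H3 and H4 genes were close to the floor. No H3 row reached the filter, and the most abundant by RPKM, Hist1h3e, had 8, 22 and 2 reads with fibrinogen and 4, 6 and 13 in controls. Summed RPKM of the 10 H3 rows was 1.03, 1.78 and 0.626 with fibrinogen and 0.630, 0.831 and 0.697 in controls, and the groups overlapped. Hist2h4, an H4 gene at chr3:96261682-96263311 on the minus strand, was at 1.34, 3.40 and 1.65 RPKM with fibrinogen and 0.882, 0.676 and 1.72 RPKM in controls. Fibrinogen library 2 was high and control library 3 was above the other fibrinogen libraries, so the groups overlapped (log2 change 0.56 ± 0.27 SE, limma adjusted p = 0.228). Hist2h4 held 88.5% of the H4 reads, and the other H4 rows together had 17, 20 and 17 reads with fibrinogen and 11, 12 and 8 in controls. Summed RPKM of the 9 H4 rows was 2.48, 4.35 and 2.39 with fibrinogen and 1.21, 1.28 and 1.97 in controls, and these sums did not overlap.

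The recovered reads allowed lower rows to be tested. With limma-voom on genes with at least 10 reads in 3 libraries, 16 histone rows entered among 20113 genes. Hist1h1c, Hist2h2aa2, Hist1h2bc and Hist1h2be, another H2B gene, were called higher and 0 lower. Hist1h2bg and Hist2h3c2 had no control library at 10 reads and entered only through the fibrinogen libraries, where they were high. Among the other 14 rows the counts at an unadjusted p under 0.05 were 7 higher and 0 lower. Of all genes so tested 5.78% were called higher and 5.64% lower at an adjusted p under 0.05. Hist1h2be (chromosome 13, minus strand) had 101, 112 and 98 reads with fibrinogen and 51, 18 and 35 in controls. Its log2 change was 1.66 ± 0.34 (SE; limma-voom adjusted p = 0.0177). On the log2(RPKM + 1) scale it was 0.40, which passed with a filter of 0.3 RPKM in 3 libraries (limma adjusted p = 0.0472) and was lost with no filter (limma adjusted p = 0.0565). The lowest fibrinogen library had more reads than the highest control library. Hist1h2be contains all 320 bases of the row Gm11398 on the same strand, which had 47, 60 and 56 reads with fibrinogen and 20, 16 and 13 in controls.

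Of the 14 rows with at least 1 control library at 10 reads, 13 had a positive log2 change, and the groups did not overlap in 9, with fibrinogen higher, where 16.1% of all genes tested did the same. These counts describe rows that passed a filter on low values and say nothing of the rows below it. The 12 rows not called had adjusted p values from 0.0689 to 0.931. Among them were Hist1h1e (2.01, limma-voom adjusted p = 0.0700) and the H2B gene Hist2h2be (0.75, limma-voom adjusted p = 0.0899). The H3 gene Hist2h3c2 had 12, 20 and 11 reads with fibrinogen and 2, 4 and 5 in controls, and the H2B gene Hist1h2bg had 22, 34 and 10 with fibrinogen and 8, 3 and 7 in controls. Since the filter helped to fix their direction, their changes are not read as tests. Hist1h2ae, an H2A gene with 12, 14 and 6 reads with fibrinogen and 12, 12 and 14 in controls, had the one negative change (-0.34, limma-voom adjusted p = 0.690).

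**Figure D4:**
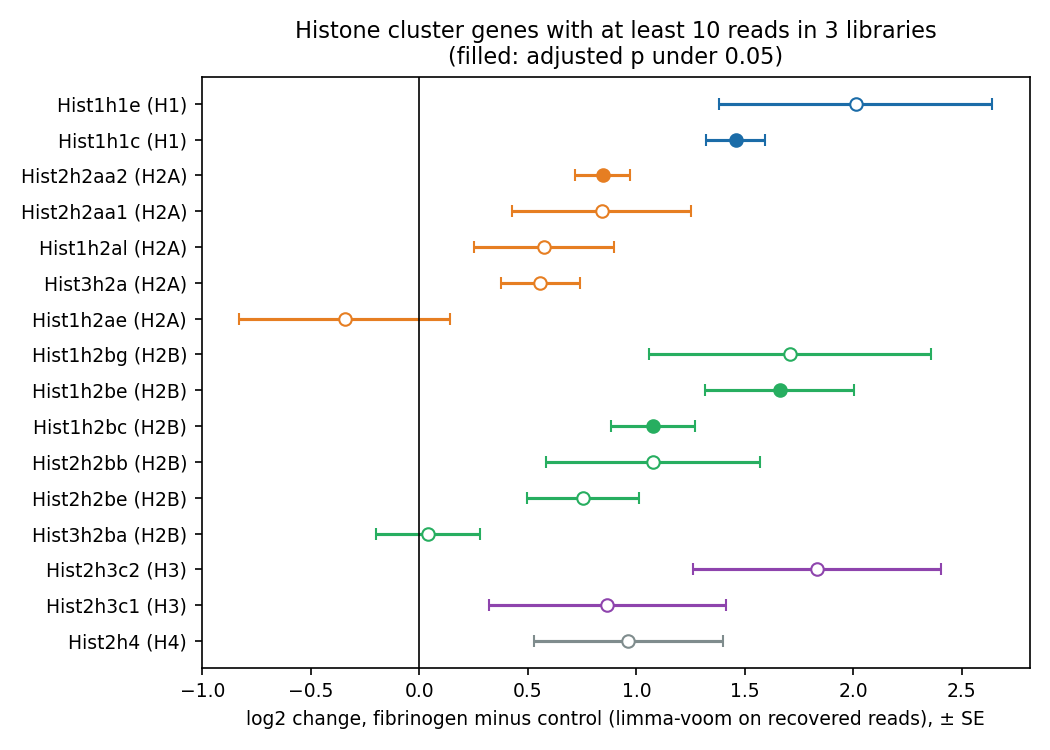
Log2 change, fibrinogen minus control, with its SE (horizontal axis) for the 16 histone cluster rows with at least 10 reads in 3 libraries, by type, from limma-voom on recovered reads. Filled points are the 4 rows with adjusted p under 0.05. Of the 16 points 15 lie right of 0, Hist1h2bg and Hist2h3c2 among them, which passed the filter only through the fibrinogen libraries.

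The remaining 42 rows held few reads, 69, 108 and 62 in all in fibrinogen libraries and 72, 51 and 40 in control libraries, and these sums overlapped. Scaled to library total, 23 of the 42 were higher with fibrinogen, 12 were higher in controls and 7 were at 0 throughout. Hist1h2br, an H2B gene, had 2, 0 and 2 reads with fibrinogen and 18, 8 and 6 in controls, the one row of the 58 in which each control library was above each fibrinogen library. Of 111 member values from 1 to 10 reads 80.2% were even numbers, as were 69.6% of such values over all rows. If mates of a read pair were counted singly, which the sources used here do not state, 2 reads can be 1 fragment.

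Genes of histone supply and of the cell cycle were counted from lists in the same fit, with the backgrounds above for calls at an adjusted p under 0.05. Of 14 genes in the table listed as replication-independent histones, most of which are expressed outside S phase and polyadenylated, 10 were tested, 4 rose and 0 fell (at an unadjusted p under 0.05, 5 and 0; by limma-voom, 4 and 0). H1fx and H1f0, linker histones, had log2 changes of 0.58 (limma adjusted p = 0.0100) and 0.41 (limma adjusted p = 0.0310). The macroH2A gene H2afy and the H2A variant gene H2afj had 0.47 (limma adjusted p = 0.0149) and 0.33 (limma adjusted p = 0.0308). H1fx was at 27.6, 28.5 and 27.6 RPKM with fibrinogen and 16.4, 19.4 and 19.3 RPKM in controls. The median log2 change of the 10 was 0.19. The count of 4 called was 2 without fibrinogen replicate 1 and 1 without fibrinogen replicate 3, control replicate 1 or control replicate 2.

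Slbp was at 7.73, 7.21 and 8.11 RPKM with fibrinogen and 7.71, 8.26 and 7.42 RPKM in controls, with overlapping groups (log2 change -0.02 ± 0.08 SE, limma adjusted p = 0.899). Of the 30 tested genes for histone mRNA processing and decay 1 rose and 3 fell (1 and 7 at an unadjusted p under 0.05). Ncbp2, of the cap-binding complex, had a log2 change of 0.36 (limma adjusted p = 0.0305). Snrpb, a core Sm protein of spliceosomal and U7 particles, had -0.54 (limma adjusted p = 0.00831), and Wdr33 and Zcchc6 had -0.33 and -0.29 (limma adjusted p = 0.0321 and 0.0344). Leaving out 1 library gave 0 or 1 of these genes higher and 1 to 6 lower. Of 25 tested histone chaperones 0 rose and 1 fell, Hira, a chaperone of replacement H3, at -0.45 (limma adjusted p = 0.0425). At an unadjusted p under 0.05 the chaperone counts were 1 and 5, and by limma-voom 0 and 2, and leaving out 1 library gave 0 to 1 higher and 0 to 3 lower.

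Of 20 tested S phase genes 2 rose and 1 fell (3 and 5 at an unadjusted p under 0.05, 3 and 1 by limma-voom). Gmnn, an inhibitor of replication licensing, had a log2 change of 0.40 (limma adjusted p = 0.0417), and Mcm7, of the replicative helicase, -0.43 (limma adjusted p = 0.0322). Leaving out 1 library gave 0 to 2 higher and 0 to 2 lower. Of 25 G2 and M phase genes 3 reached the filter and 0 passed in either direction, with 1 higher and 1 lower at an unadjusted p under 0.05 and 1 and 0 by limma-voom, where the counts at an unadjusted p under 0.05 were 5 and 1. The groups did not overlap in 4 of the 25 with fibrinogen higher and in 1 with controls higher. Of all genes with at least 10 reads in 3 libraries, 16.1% and 16.8% did the same, so the 4 were near the share over all genes. Top2a, a DNA topoisomerase gene of dividing cells, was the one called by limma-voom (log2 change 1.59, limma-voom adjusted p = 0.0328), at 0.360, 0.482 and 0.286 RPKM with fibrinogen and 0.238, 0.0739 and 0.104 RPKM in controls. Median RPKM of the 25 was 0.241 to 0.286 in fibrinogen libraries and 0.205 to 0.270 in control libraries, and the most abundant, Anln, had a log2 change of -0.39 (limma adjusted p = 0.118).

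Some RNAs that are not polyadenylated were also higher in fibrinogen libraries. Of 7 tested, 5 rose and 0 fell (at an unadjusted p under 0.05, 5 and 1; by limma-voom, 5 and 0), with log2 changes of 3.71 for Rn7s1, of the signal recognition particle, 3.71 for the U3 small nucleolar RNA gene Rnu3a, 2.62 for Mir6236, 2.46 for Rn7s2 and 1.65 for Rn7sk, the 7SK RNA. Rnu3a and Rn7sk had no control library at 1 RPKM and entered only through the fibrinogen libraries, where they were high. Since the filter helped to fix their direction, the changes of Rnu3a and Rn7sk are not read as tests. Without Malat1 and Neat1, whose ends form a triple helix, the 17 listed RNAs summed to 102, 129 and 75.2 RPKM with fibrinogen and 14.2, 9.50 and 4.41 RPKM in controls, and 3 of them were at 0 throughout. Most of each sum came from the 5 called RNAs. The others were low and went both ways: Rnu5g averaged 0.694 RPKM with fibrinogen and 0 in controls, and Rnu73b 0.339 and 1.06 RPKM. Malat1 (log2 change -0.61, limma adjusted p = 0.157) and Neat1 (-0.14, limma adjusted p = 0.770) did not pass. Libraries were made with a kit for mRNA. The part of these RNAs, or of library preparation, in the histone result was not tested.

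**Figure D5:**
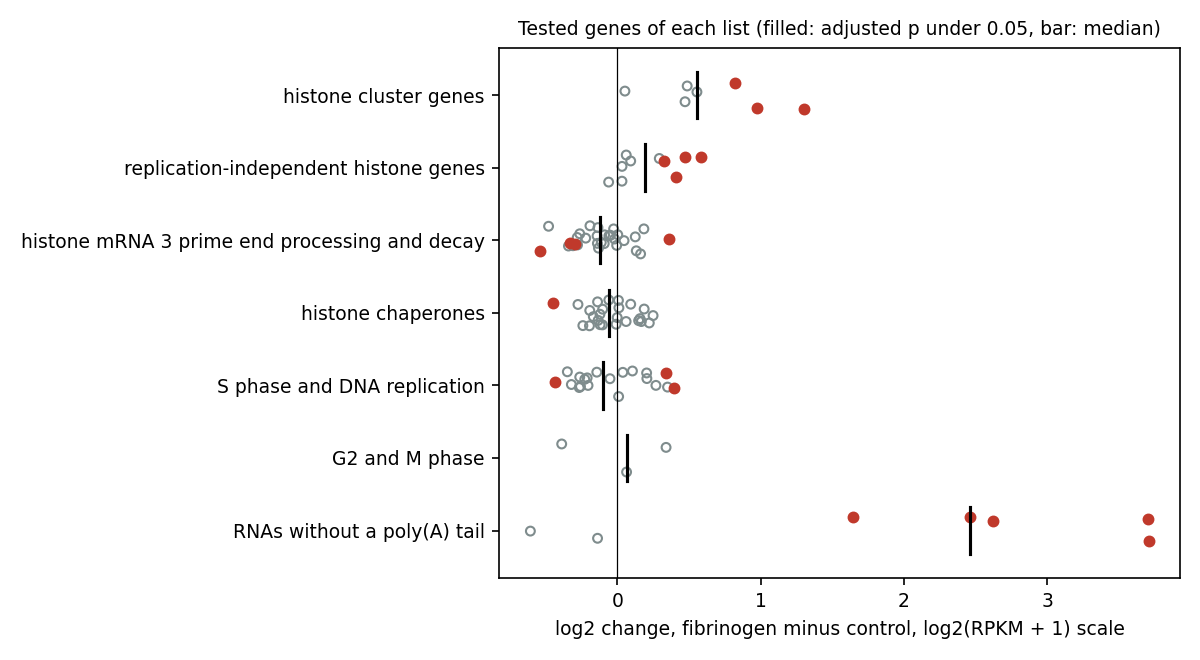
Log2 change of log2(RPKM + 1), fibrinogen minus control (horizontal axis), of each tested gene, for the histone cluster rows and the 6 lists (vertical positions). Filled points passed the test and bars are medians, at 0.56 for histone cluster rows, 0.19 for replication-independent histones and 2.46 for RNAs without a poly(A) tail. Of the last list, Rnu3a and Rn7sk passed the filter only through the fibrinogen libraries.

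Libraries held 36670999 to 44448983 reads assigned to genes, summed over all rows. A read in overlapping rows may be counted in each, so these totals, which RPM also uses, may exceed the number of distinct reads. The OPC label was checked against marker genes. Median RPKM of 10 OPC markers was 6.48 to 7.11 with fibrinogen and 5.003 to 6.31 in controls, that of 10 neuron markers was 92.0 to 97.0 with fibrinogen and 92.2 to 99.5 in controls, and no marker of either list was at 0 in all libraries. Neuron markers thus stood far above OPC markers in every library labelled OPC. Of the OPC markers, 5 of 9 tested rose and 0 fell (6 and 0 at an unadjusted p under 0.05, 7 and 0 by limma-voom). Summed RPKM of the 10 OPC markers was 92.4 to 96.8 with fibrinogen and 63.3 to 69.0 in controls. Those that rose were Olig1, Olig2, Sox10, Gpr17 and Cspg5. Pdgfra (log2 change -0.11, limma adjusted p = 0.615) and Lhfpl3 (-0.08, limma adjusted p = 0.726) did not pass, and their groups overlapped. Of the neuron markers 1 rose and 0 fell (2 and 1 at an unadjusted p under 0.05, 1 and 0 by limma-voom). Other cell types had called markers as well. Of 8 endothelial and mural markers 3 rose and 0 fell (3 and 1 at an unadjusted p under 0.05, 3 and 1 by limma-voom), with summed RPKM of 63.7 to 80.4 with fibrinogen and 49.997 to 55.4 in controls. Of 5 neural stem markers 2 rose, Nes and Fabp7, and 0 fell (2 and 0 at an unadjusted p under 0.05, 2 and 0 by limma-voom), with 54.1 to 61.6 with fibrinogen and 40.7 to 47.0 in controls. Of 8 microglia and macrophage markers 1 rose and 3 fell (3 and 3 at an unadjusted p under 0.05, 2 and 3 by limma-voom). Their summed RPKM was 82.9 to 92.7 with fibrinogen and 120.0 to 138.0 in controls, but their median log2 change was 0.12. Cx3cr1 rose, and C1qa, C1qb and Ctss fell. P2ry12, Tmem119 and Aif1 did not pass, though each had fibrinogen higher without overlap of the groups. Of 8 astrocyte markers 1 rose and 2 fell (1 and 3 at an unadjusted p under 0.05, 1 and 3 by limma-voom). Of 8 markers of myelinating oligodendrocytes 2 rose and 0 fell (2 and 0 at an unadjusted p under 0.05, 2 and 0 by limma-voom). Of 3 tested blood markers 0 rose and 1 fell (0 and 1 at an unadjusted p under 0.05, 0 and 2 by limma-voom). None of these markers was at 0 in all libraries. The blood marker that fell, S100a9, had no fibrinogen library at 1 RPKM and entered only through the control libraries, where it was high. The part of these cell types in the histone result was not tested. In such bulk samples a change in the number of cells of a type and one in RNA per cell cannot be told apart.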

How the data were processed

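RNA sequencing was analysed for 3 fibrinogen and 3 control mouse libraries, grouped by sample title. Stranded mRNA libraries were made from total RNA. The submitters' processing notes list the builds GRCm38 and mm10 and name edgeR 3.12.1, featureCounts 1.5.1, Trimmomatic 0.39 and STAR 2.7.6a, and the methods name another mouse build. All 57 histone rows that matched 1 RefSeq gene overlapped its GRCm38.p6 position. How strand and multiply mapping reads were treated is not given in the sources used here.

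The authors deposited RPKM values in 1 table with exon lengths, from which whole reads were recovered (100% of values above 0 within 0.001 reads). RPKM is not a count, so log2(RPKM + 1) values were tested with limma 3.58.1 under R 4.3.3, with its trended prior. A gene entered if 3 of the 6 libraries reached 1 RPKM. The two-sided p-values were adjusted by Benjamini-Hochberg over all tested genes, with a threshold of 0.05. The pseudocount understates the changes of rows near the floor. Groups of this size cannot pass an exact permutation test, so none was run. The fits were tested on simulated data.

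The members and lists were chosen with earlier results of these data known, so no list was tested as a whole and no p was adjusted over a list. Values per library are given for called members, other tested members at 5 RPKM or more and the most abundant member of a type with neither. From other lists up to 4 called genes were named, with Slbp, and 1 called S phase gene is not reported here. Hist3h2ba, Hist1h2be, the other low members, Top2a, H1fx by library, Trim17, Gm20632 and the OPC, neuron and microglia markers were named after their values were seen. Alternatives were other pseudocounts, filters, scalings and variances, array weights, limma-voom, the replicate block and leaving out each library. The sum of Hist2h2aa1 and Hist2h2aa2 was added after seeing the data. Stem-loops were searched in GENCODE vM39 transcripts matched by symbol, and motifs in RefSeq promoter windows.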

Additional observations from a re-analysis of the deposited data

How the results depend on the processing

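Of 20 alternatives, the number of histone cluster rows called was 2 to 4, all of them higher in fibrinogen libraries, and 0 lower in each. Leaving out 1 library gave 2 to 4. Hist1h1c (log2 change 1.16 to 1.47) and Hist2h2aa2 (0.72 to 0.88) passed in all 20, Hist1h2bc (0.75 to 1.14) in 17 and Hist3h2a (0.32 to 0.68) in 2, array weights (0.68, limma adjusted p = 0.0105) and leaving out control replicate 3. With no filter 4 rows were called, Hist1h2bf among them, which had 2 reads in each fibrinogen library and 0 in each control library. Hist1h2be there was at 0.40 (limma adjusted p = 0.0565). The log2 change of Hist3h2ba was -0.086 without fibrinogen replicate 1 and -0.031 without control replicate 2, and leaving out each library gave -0.086 to 0.17. The cause was not tested. Over the same alternatives, replication-independent histones called higher were 1 to 5 and RNAs without a poly(A) tail 3 to 6. Genes of mRNA processing and decay called lower were 1 to 7, histone chaperones called lower 0 to 3, and S phase genes 0 to 3 higher and 0 to 8 lower. With the replicate number as a block 3 histone cluster rows were called, as without it, and 1 replication-independent histone. Libraries that share a number had deviations that correlated at 0.058, -0.24 and -0.075, and the numbers were therefore read as names only, not as a pairing. Depth limits most of the cluster: 42 rows had at most 22 reads in any library and did not reach 10 reads in 3 libraries. Near that filter the choice of rows follows the group with more reads, since Hist1h3e with 55 reads in all was not tested and Hist2h3c2 with 54 was.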
